A study of Mus musculus and Mus musculus musculus x Mus musculus castaneus with 8 samples.

Results

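The 4 Hox gene clusters of the mouse were examined as regions of open chromatin, measured by ATAC-seq, in which a transposase inserts sequencing adaptors into accessible DNA. The regions are coordinate windows in mm9, the genome build named in the submitters' processing notes. The Hoxa window spans chromosome 6 from 52050000 to 52250000, the Hoxb window chromosome 11 from 96030000 to 96250000, the Hoxc window chromosome 15 from 102730000 to 102890000 and the Hoxd window chromosome 2 from 74480000 to 74620000. A peak belonged to a window if it overlapped it by at least 1 bp. Of the 151729 peaks in the 5 deposited lists, 93 lay in the windows, which together cover 720 kb.

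Hox genes encode homeodomain transcription factors that give cells their position along the head-to-tail axis and along the limbs. In each cluster the genes lie side by side in an order that matches the order of body levels at which they act, so that the low-numbered genes work towards the head and the high-numbered genes towards the tail and the limb tips. In cells that do not use them, the clusters are classical targets of Polycomb repression, and cultured fibroblasts are known to retain a pattern of Hox activity that reflects where in the body they came from.

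C2C12 is an established mouse myoblast line of strain C3h, and it was assayed from 50000 cells (2 libraries) and from 1000 cells (2 libraries). The mouse embryonic fibroblasts (MEFs) came from embryos of the cross Mus musculus musculus x Mus musculus castaneus, were permeabilized before use, and were assayed at 3000 cells in every MEF condition: donor cells before nuclear transfer (NT, 1 library), cells 48 h after NT into Xenopus laevis oocytes (2 libraries, each of pooled oocytes) and cells 48 h after NT into oocytes overexpressing Toca1/Fnbp1l, a protein that promotes actin polymerization (1 library). Each condition has 1 peak list at a false discovery rate of 0.01, without scores or read numbers, so the spread between libraries and the depth behind a peak are unknown. In every comparison between lists, condition, library and depth therefore cannot be told apart, and no test between conditions was possible. The labelled cell types were not checked against marker genes, because marker genes could not be placed in the coordinates of the lists.

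The lists differed in size, from 8257 peaks after NT to 52697 in C2C12 from 50000 cells, so each count in a window is given beside the whole list. In the 4 windows together, C2C12 from 50000 cells had 29 peaks, C2C12 from 1000 cells 13, donor MEFs 22, MEFs after NT 5 and MEFs after NT with Toca1 24. Donor MEFs and the Toca1 condition thus had similar numbers in the Hox windows, although the Toca1 list was shorter, with 16412 peaks against 39592.

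**Figure D1:**
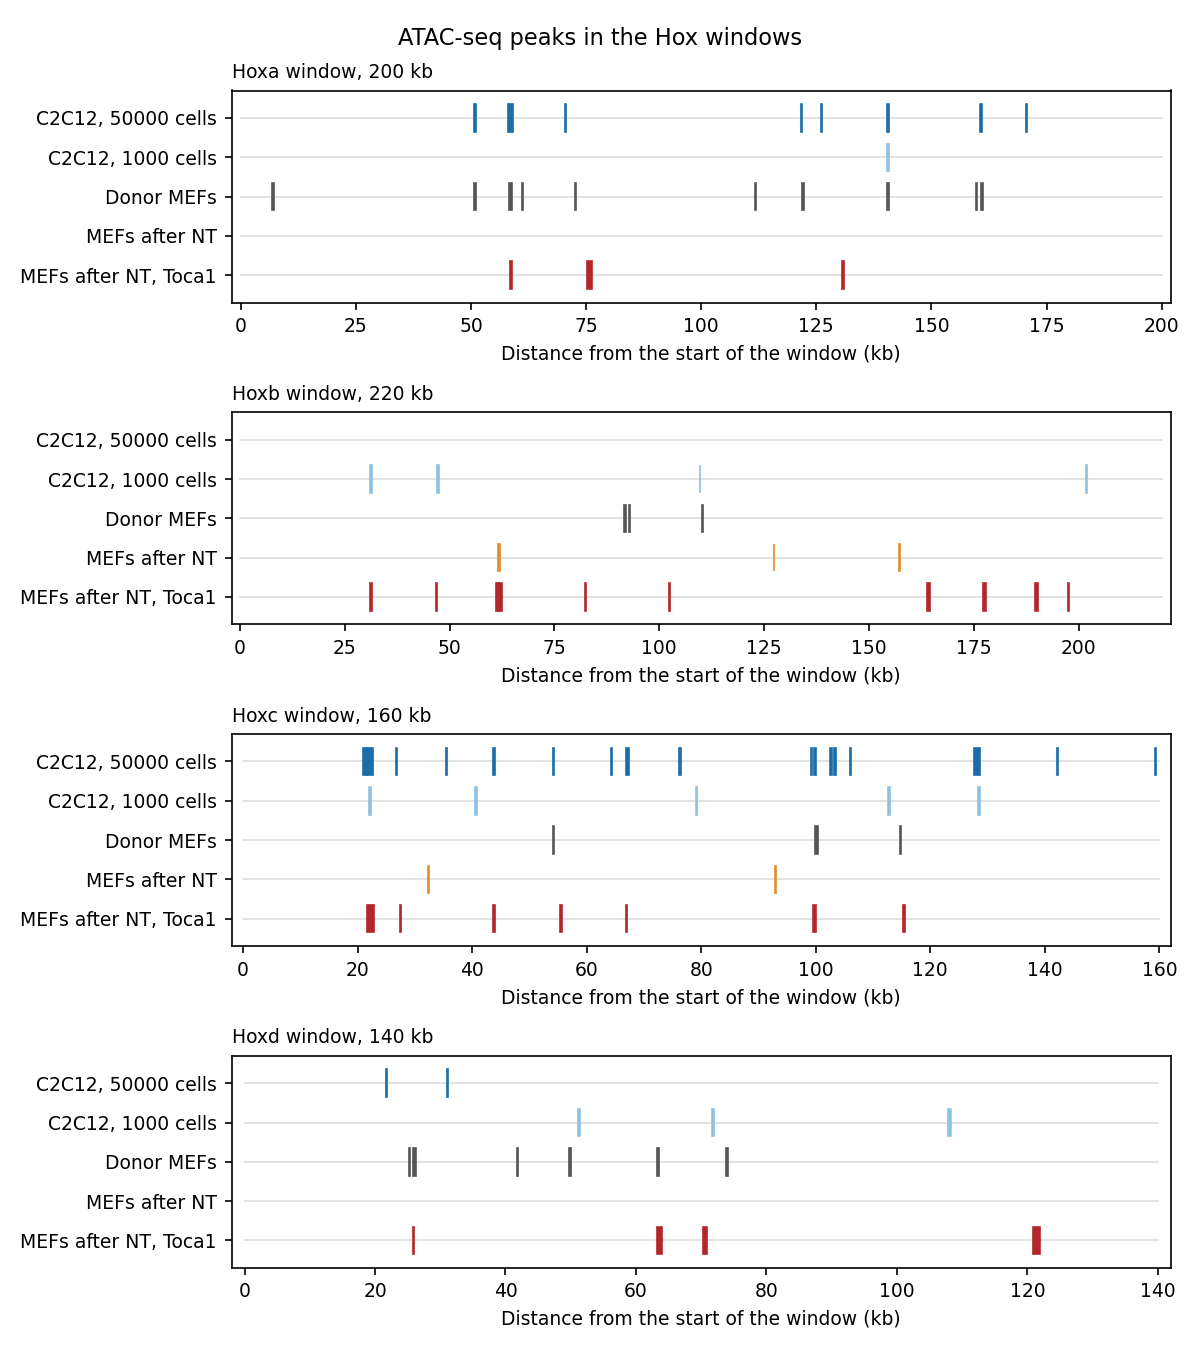
Positions of the ATAC-seq peaks of the 5 lists in the 4 Hox windows. The horizontal axis is the distance from the start of the window in kb, each row is a list and each bar a peak drawn to its width. The Hoxb row of C2C12 from 50000 cells and the Hoxa and Hoxd rows of MEFs after NT hold 0 peaks.

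Per 10000 peaks of a list, 14.6 Toca1 peaks lay in the Hox windows (95% Wilson interval 9.83 to 21.8), against 6.06 after NT (2.59 to 14.2), 5.56 in donor MEFs (3.67 to 8.41), 5.50 in C2C12 from 50000 cells (3.83 to 7.90) and 3.74 in C2C12 from 1000 cells (2.19 to 6.40). The Toca1 interval lay above those of donor MEFs and both C2C12 lists, and it overlapped the interval after NT. The intervals express only the counting error of the peaks and treat neighbouring peaks as independent. They hold no spread between libraries, so whether they overlap is a description and not a test between conditions. From the control NT list to the Toca1 list, the number of peaks was 4.80 times as high in the Hox windows and 1.99 times as high in the whole list. Measured as peaks per Mb, the Hox windows held 5.23 times the density of the whole Toca1 list, and between 1.34 and 2.16 times that of the other lists. When each list was cut to its 8257 widest peaks, the windows held 10 Toca1 peaks, 6 of C2C12 from 1000 cells, 5 after NT, 2 of donor MEFs and 1 of C2C12 from 50000 cells. The list after NT has 8257 peaks and was kept whole. These counts depend on peak width. The widest 25% of each list held 5 of 24 Toca1, 6 of 13 1000-cell C2C12, 2 of 22 donor and 1 of 29 50000-cell C2C12 Hox peaks.

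The Hoxb window held 10 of the 24 Toca1 peaks. Without it, 8.53 Toca1 peaks per 10000 lay in the remaining windows (interval 5.08 to 14.3), and this interval overlapped those of donor MEFs (4.80, 3.07 to 7.49), C2C12 from 50000 cells (5.50, 3.83 to 7.90) and MEFs after NT (2.42, 0.664 to 8.83), but not that of C2C12 from 1000 cells (2.59, 1.36 to 4.92). Without Hoxc there were 10.4 Toca1 peaks per 10000 (interval 6.47 to 16.6), and this interval too overlapped those of donor MEFs (3.07 to 7.49) and of MEFs after NT (1.24 to 10.7). Without Hoxa or Hoxd the values were 12.8 (8.37 to 19.6) and 12.2 (7.89 to 18.8), above the intervals of donor MEFs and both C2C12 lists.

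**Figure D2:**
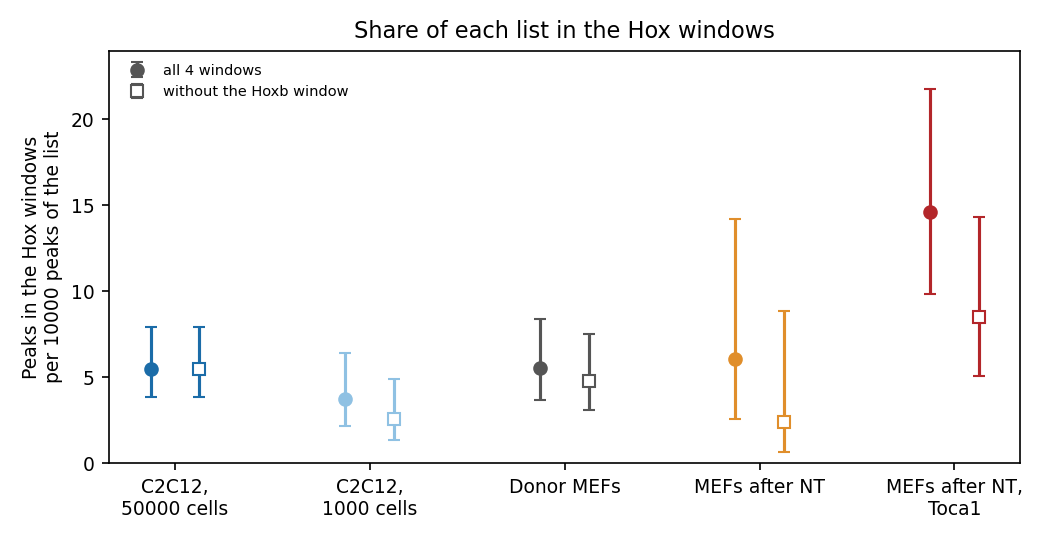
Peaks in the Hox windows per 10000 peaks of each list, with 95% Wilson intervals as bars. Filled circles are all 4 windows and open squares the windows without Hoxb. The Toca1 list is highest in both, at 14.6 and 8.53 per 10000.

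Peaks covered 1.72% of the Hox windows in the Toca1 list, 1.31% in C2C12 from 50000 cells, 1.12% in donor MEFs, 0.591% in C2C12 from 1000 cells and 0.165% after NT. The Toca1 list thus covered the most Hox sequence of the 5 lists. In the same order, the whole lists covered 0.342%, 0.944%, 0.678%, 0.387% and 0.109% of the chromosomes between their outermost peaks. Each list, also the one after NT, therefore covered a larger share of the Hox windows than of the chromosomes. In 4 of the lists, peaks in the Hox windows were narrower than in the whole list, with medians of 274 against 392 bp in C2C12 from 50000 cells, 334.5 against 399 bp in donor MEFs, 181 against 291 bp after NT and 416 against 467 bp with Toca1. In C2C12 from 1000 cells they were wider (334 against 258 bp). Of the 24 Toca1 peaks in the Hox windows, 3 were at least 1000 bp wide, a width reached by 8.76% of the whole Toca1 list.

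**Figure D3:**
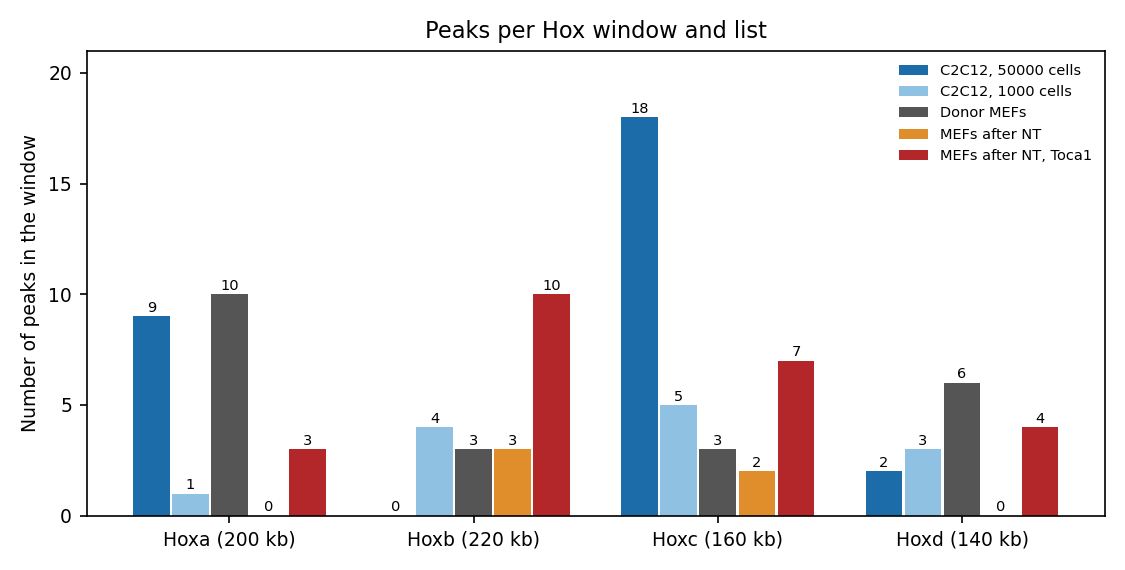
Number of peaks in each Hox window (vertical axis) for the 5 lists, with the count written above each bar. Hoxa was led by donor MEFs (10) and C2C12 from 50000 cells (9), Hoxb by the Toca1 list (10), Hoxc by C2C12 from 50000 cells (18) and Hoxd by donor MEFs (6).

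The leading condition differed between clusters. To set each count beside the rest of the genome, every chromosome was cut into consecutive tiles of the length of the window. The tiles include gene deserts, so they are a description of the list and not a matched control.

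Hoxa held the most donor MEF peaks on C2C12 peaks from 50000 cells, and it also held the most donor peaks. The listed genes run from Hoxa2 to Hoxa13 in the RefSeq table of GRCm38.p6, and none of them was paired with a peak by the sources used here. C2C12 from 50000 cells had 9 peaks in this window (at least as many were found in 17.0% of tiles) and donor MEFs had 10 (6.23% of tiles). C2C12 from 1000 cells had 1 peak (83.8% of tiles had at least 1), the Toca1 list had 3 (19.4% of tiles) and the list after NT had 0, as did 64.9% of tiles.

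Of the 10 donor MEF peaks in Hoxa, 5 overlapped a C2C12 peak from 50000 cells (50%, interval 23.7% to 76.3%). The share was 64.6% in the whole donor list, inside this interval, and 2 of 3 in Hoxc. The C2C12 peaks overlapped included the widest of the window, 426 bp from 52210633 to 52211058. The widest donor peak, 777 bp from 52108212 to 52108988, overlapped a pair of C2C12 peaks of 402 and 335 bp. A Toca1 peak of 508 bp, from 52108398 to 52108905, lay wholly inside the same donor peak. This was the only Hoxa site that the Toca1 list shared with donor cells. A further site, from 52190439 to 52190780 in donor MEFs, was present in both C2C12 lists, with the 50000-cell peak starting 1 bp away and the 1000-cell peak containing the donor peak, and it was absent from both NT lists. The other Toca1 peaks in Hoxa were one of 1011 bp, from 52125203 to 52126213, at 2321 bp from the nearest donor peak, and one of 435 bp, from 52180582 to 52181016, at 8296 bp.

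In Hoxb the order of conditions was different. C2C12 from 50000 cells had 0 peaks in the 220 kb (29.9% of tiles had 0), and donor MEFs had 3 (at least 3 in 47.2% of tiles), after NT there were 3 (8.67% of tiles) and with Toca1 there were 10 (0.847% of tiles). C2C12 from 1000 cells had 4 peaks (35.4% of tiles). The Toca1 list held more peaks than the donor list here, as it did in 7.10% of tiles of this length. The list of C2C12 from 1000 cells therefore had peaks in a window in which the same cell line at 50000 cells had none. None of the 4 lay on a donor MEF peak. In the whole 1000-cell list 6.83% of peaks lay on a donor peak and 8.48% on a 50000-cell peak. With such shares, 4 peaks are too few to detect a lower share in Hoxb.

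The 3 donor MEF peaks in Hoxb were 499, 229 and 382 bp wide with centres 91.8 to 110.3 kb from the start of the window. None of them overlapped a peak of the other 4 lists. In the whole donor list 64.6% of peaks overlapped a C2C12 peak from 50000 cells and 6.03% one from 1000 cells. For the lists after NT and with Toca1 these shares were 9.73% and 19.7%. The 109.5 kb at the upper end of the window held no donor peak. All 10 Toca1 peaks and all 3 peaks after NT lay away from these donor peaks. The distance to the nearest donor peak ran from 7594 to 66679 bp for Toca1, with a median of 45776 bp, and from 16756 to 46677 bp for the peaks after NT. By the threshold of at least 5000 bp that the study uses for newly opened chromatin, all 13 counted as newly opened. With 3 donor peaks in the window, most positions in it meet this threshold.

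Of the genes named here, 4 of 38 could be tied to a peak, and only through the peaks after NT, since the study's tables pair such peaks with genes. The Hoxb peak from 96157278 to 96157455, 178 bp wide, lies in Hoxb5os, an antisense transcript, and the nearest start site is that of Hoxb6. The peak from 96187199 to 96187456, 258 bp wide, lies in Hoxb3, whose product acts in the hindbrain and neck region. The third peak, 401 bp wide from 96091590 to 96091990, is intergenic and nearest to the start of the long non-coding RNA Gm53, which the reference table lists between Hoxb13 and Hoxb9. The other 34 genes matched the reference table by symbol, but they were not placed at peaks, because that table is in another build.

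The intergenic peak near Gm53 was the one Hox site found in both NT lists. With Toca1 it was 923 bp wide, from 96091588 to 96092510, so the peaks of the lists started 2 bp apart and the Toca1 peak was 2.30 times as wide. Over all such pairs in the whole lists, the Toca1 peak was 1.75 times as wide at the median. A second Toca1 peak of 290 bp lay 134 bp from the peak after NT. Neither the Hoxb5os peak nor the Hoxb3 peak was overlapped in the Toca1 list, whose nearest peaks lay 24732 and 6480 bp away.

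The Toca1 peaks of Hoxb lay on both sides of the peaks in Hoxb5os and Hoxb3. At lower coordinates than the Hoxb5os peak there were 6 of them, on the side where the reference order has Hoxb7, Hoxb8, Hoxb9 and Hoxb13. At higher coordinates than the Hoxb3 peak there were 4, on the side of Hoxb2 and Hoxb1. These 4 peaks were 581, 664, 786 and 284 bp wide, with centres between 164.2 and 197.6 kb from the start of the window, where donor MEFs and MEFs after NT had no peak. The 29.7 kb between the Hoxb5os and Hoxb3 peaks held no peak in any of the 5 lists. Within the 6 peaks on the other side, the one from 96061099 to 96061430 overlapped a 1000-cell C2C12 peak by 310 bp and the one from 96076785 to 96077104 overlapped another by 10 bp. The remaining peaks of this side included narrow ones of 180 bp, from 96112338 to 96112517, and 322 bp, from 96132224 to 96132545, and these overlapped no peak of another list.

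High Toca1 counts were also found next to the Hoxb window. In the adjoining stretches of the same length, the Toca1 list had 13 peaks below and 7 above the window, against 10 inside. Donor MEFs had 6 and 3, against 3 inside, the list after NT had 4 and 4, against 3, and C2C12 from 50000 cells had 5 and 3, against 0. The number of Toca1 peaks was therefore not higher inside the cluster than on its lower side, and the lack of peaks in C2C12 from 50000 cells was not seen in either adjoining stretch.

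**Figure D4:**
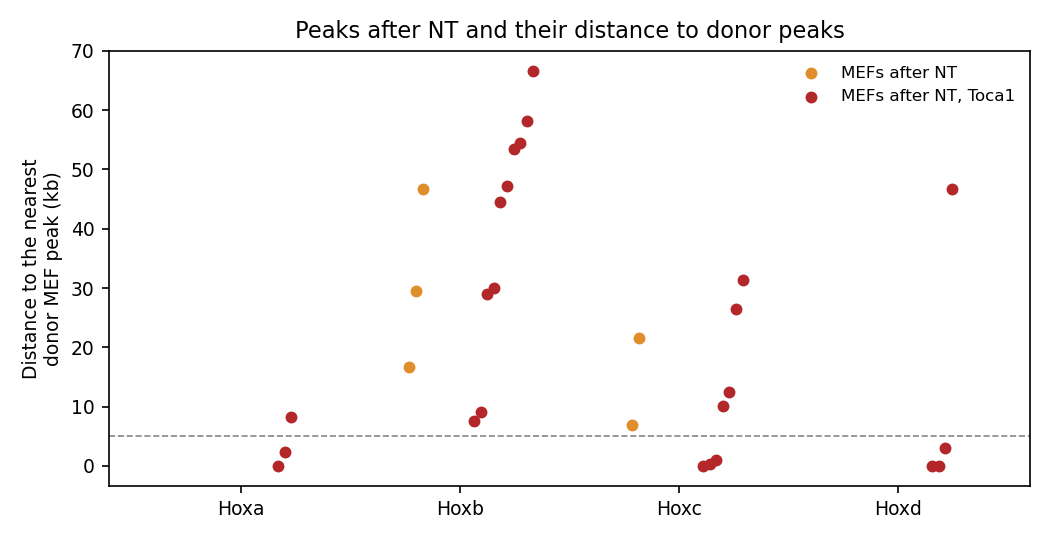
Distance in kb from each Hox peak after NT and after NT with Toca1 to the nearest donor MEF peak, by cluster. Each point is a peak and the dashed line is the threshold of 5000 bp for newly opened chromatin. All points of Hoxb lie above the line, and the list after NT has no peaks in Hoxa and Hoxd.

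Hoxc was the cluster with the most open chromatin in C2C12. The list from 50000 cells had 18 peaks there, a number reached by 0.523% of tiles of this length. The 1000-cell list had 5 peaks (12.4% of tiles had at least 5), donor MEFs 3 (38.3% of tiles), MEFs after NT 2 (12.9% of tiles) and the Toca1 list 7 (1.52% of tiles). As in Hoxb, the Toca1 list held more peaks than the donor list, which was the case in 7.52% of tiles of this length. The centres of the C2C12 peaks ran from 21.3 to 159.4 kb of the 160 kb, with 22.6 kb as the longest stretch without a peak, against 54.1 kb in donor MEFs. Only 9 of the 18 were at least 250 bp wide. The widest C2C12 peak was 986 bp wide, from 102857692 to 102858677, and a 1000-cell peak lay inside it. No MEF list had a peak there.

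Donor MEFs had Hoxc peaks of 252, 507 and 216 bp. The first and second of these overlapped C2C12 peaks from 50000 cells. The second, from 102829872 to 102830378, also overlapped a Toca1 peak, from 102829608 to 102829993. That Toca1 peak shared 122 bp with the donor peak and covered the whole 348 bp of the C2C12 peak, from 102829642 to 102829989, with the centres of the latter pair 15 bp apart.

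In Hoxc, 4 of the 7 Toca1 peaks overlapped a C2C12 peak from 50000 cells (57.1%, interval 25% to 84.2%), against 49.6% of the whole Toca1 list. A donor peak was overlapped by 1 of the 7 (14.3%, interval 2.57% to 51.3%), against 45.5%. Both intervals took in the whole-list shares. The peaks on C2C12 peaks included the widest Toca1 peak in any Hox window, 1193 bp from 102751598 to 102752790, which contained C2C12 peaks of 433 and 218 bp and a 1000-cell C2C12 peak of 244 bp, and which lay 31278 bp from the nearest donor peak. The Toca1 peak from 102796857 to 102797109 started at the same base as a C2C12 peak of 567 bp. The Toca1 peak from 102773596 to 102773986 lay inside a C2C12 peak of 445 bp. A newly opened Toca1 peak of 244 bp, from 102757429 to 102757672, lay 478 bp from a C2C12 peak. The peaks starting at 102751598, 102773596 and 102796857 were on C2C12 peaks and on no donor peak, which held for 7.78% of the whole Toca1 list and for 3 of its 24 peaks in the Hox windows.

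The 2 peaks after NT in Hoxc were narrow. One, 181 bp from 102762321 to 102762501, is intergenic with Hoxc12 as the nearest start site, and Hoxc12 belongs to the genes used at the tail end of the body. The other, 170 bp from 102822864 to 102823033, lies in Hoxc8, which patterns the trunk. They lay 21567 and 6838 bp from the nearest donor peak, 2910 and 6072 bp from the nearest 50000-cell C2C12 peak and 4648 and 6574 bp from the nearest Toca1 peak. Below the peak near Hoxc12, on the side of Hoxc13, there were 4 C2C12 peaks, 2 Toca1 peaks and 0 donor peaks. Between the peaks near Hoxc12 and in Hoxc8 there were 6, 3 and 1, and above the Hoxc8 peak, on the side of Hoxc6, Hoxc5 and Hoxc4, there were 8, 2 and 2. In the stretches of equal length adjoining the Hoxc window, the Toca1 list had 0 peaks below and 5 above, and C2C12 from 50000 cells had 6 and 13.

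In Hoxd, as in Hoxa, donor MEFs had the highest number of peaks. They had 6 peaks of 228 to 596 bp there, and 87.9% of tiles had fewer than 6. The Toca1 list had 4 peaks, and 92.8% of tiles had fewer than 4, so that relative to its own list the Toca1 count was the less common of the pair. C2C12 from 50000 cells had 2 peaks (48.9% of tiles had fewer than 2), C2C12 from 1000 cells had 3 (69.6% had fewer than 3), and there were 0 peaks after NT, as in 71.4% of tiles. Hoxd genes such as Hoxd13 and Hoxd12 pattern the digits and the external genitalia, and Hoxd1 lies at the other end of the reference order. None of the 6 donor peaks overlapped a C2C12 peak of either list, which allows a share of up to 50% by 3 counts. In the whole donor list 64.6% of peaks overlapped a C2C12 peak from 50000 cells and 6.03% one from 1000 cells. A share below the 6.03% was not detectable with 6 peaks. The adjoining stretches held few peaks, with 1 and 1 in donor MEFs and 1 and 2 with Toca1.

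Toca1 peaks overlapped 2 of the donor peaks in Hoxd. At one, the donor peak of 596 bp, from 74505751 to 74506346, contained a Toca1 peak of 184 bp. At the other, the Toca1 peak of 703 bp, from 74543251 to 74543953, contained the donor peak of 259 bp and was 2.71 times as wide. The remaining Toca1 peaks were 529 bp wide at 3032 bp from a donor peak and 1024 bp wide, from 74600907 to 74601930, at 46741 bp. The last is in the upper 65.8 kb of the window, which held no donor peak. After NT the nearest peak to the donor peaks of Hoxd lay 87999 bp away or more.

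Merging overlapping peaks of the 5 lists gave 71 separate sites in the 4 clusters. Of these, 16 had peaks in 2 or more lists (22.5%), 12 of them in 2 lists and 4 in 3 lists, and no site was present in 4 or 5 lists. In the whole genome the share was close to this, with 26.2% of 107469 sites in 2 or more lists. Only 2.74% of the sites in the whole genome were in 4 lists and 0.561% in 5 lists. With such shares, 71 sites are too few to detect a lower share in the Hox clusters.

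Of the 22 donor MEF peaks in the Hox windows, 7 overlapped a C2C12 peak from 50000 cells (31.8%, interval 16.4% to 52.7%), against 64.6% of the whole donor list. In the other direction 8 of 29 C2C12 peaks overlapped a donor peak (27.6%, interval 14.7% to 45.7%), against 48.4%. Both whole-list shares lay outside the Hox intervals. Narrow peaks were shared less often in both whole lists, with 46.4% of the narrowest and 83.4% of the widest 25% of donor peaks on C2C12 peaks, and 24.7% and 76.7% of C2C12 peaks on donor peaks. When the whole lists were weighted to the widths of the Hox peaks the shares were 58.4% and 36.3%. The second of these lay inside the interval. Without Hoxb, 7 of 19 donor peaks overlapped a C2C12 peak (36.8%, interval 19.1% to 59.0%), and this interval took in the first as well. The shared peaks were in Hoxa and Hoxc, with 5 and 2 donor peaks, and there were none in Hoxb and Hoxd.

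**Figure D5:**
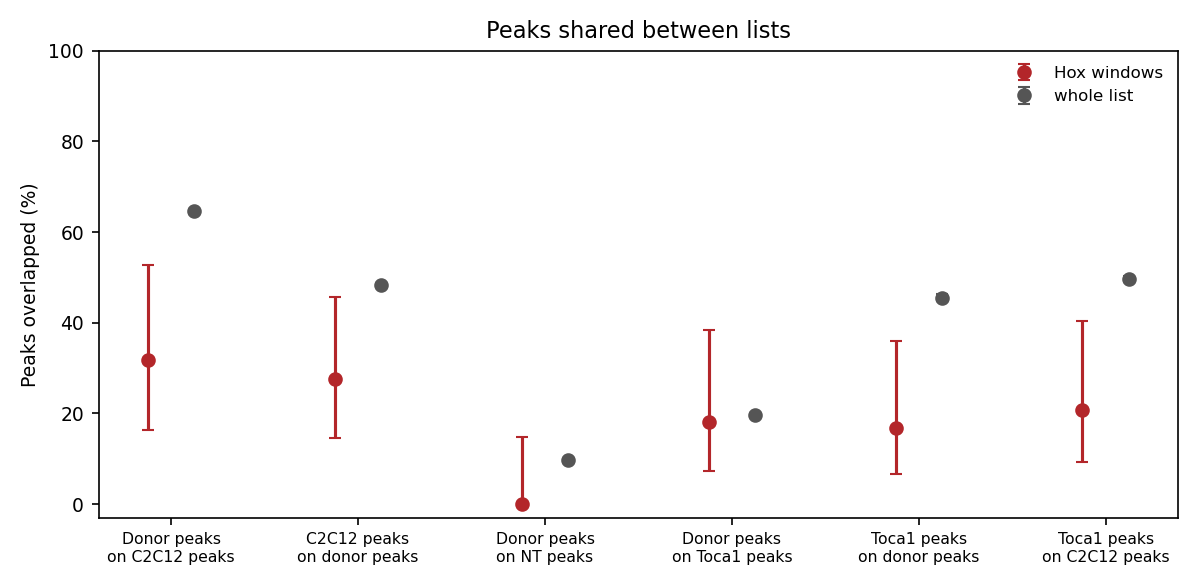
Percentage of peaks of one list that overlapped a peak of another, in the 4 Hox windows and in the whole list, with 95% Wilson intervals as bars. Sharing between donor MEFs and C2C12 was 31.8% and 27.6% in the Hox windows against 64.6% and 48.4% in the whole lists, and the Toca1 peaks lay on donor peaks in 16.7% against 45.5%.

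After NT, 0 of the 22 donor peaks were overlapped, which allows a share of up to 13.6%. In the whole donor list 9.73% of peaks were overlapped after NT, or 6.91% at the widths of the Hox peaks, so a lower share in the Hox clusters was not detectable with this number of peaks. With Toca1, 4 of the 22 were overlapped (18.2%, interval 7.31% to 38.5%), close to the 19.7% of the whole list.

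Seen from the NT lists, all 5 Hox peaks after NT were newly opened, against 38.1% of the whole list after NT, or 51.0% at the widths of the Hox peaks (interval of the Hox share 56.6% to 100%). Without Hoxb there were 2 of 2, with an interval of 34.2% to 100% that took in both whole-list shares. All 5 peaks lay in Hoxb and Hoxc, where the donor list had only 3 peaks per window. Most positions in these windows lie at least 5000 bp from a donor peak. A trait of the peaks after NT and the scarcity of donor peaks therefore cannot be told apart. In windows widened by 50 kb, 6 of 8 peaks after NT were newly opened. Of the 24 Toca1 peaks in the Hox windows, 16 were newly opened (66.7%, interval 46.7% to 82.0%), against 39.7% of the whole Toca1 list, or 41.8% at the widths of the Hox peaks. By cluster these were 10 of 10 in Hoxb, 4 of 7 in Hoxc, 1 of 3 in Hoxa and 1 of 4 in Hoxd. The shares in Hoxb and Hoxc have the same limit from few donor peaks. Without Hoxb, 6 of 14 were newly opened (42.9%, interval 21.4% to 67.4%), close to the share in the whole list.

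The Toca1 peaks in the Hox windows lay on donor peaks in 4 of 24 cases (16.7%, interval 6.68% to 35.9%), against 45.5% of the whole list, and on 50000-cell C2C12 peaks in 5 of 24 (20.8%, interval 9.24% to 40.5%), against 49.6%. Without Hoxb these were 4 of 14 (28.6%, interval 11.7% to 54.6%) and 5 of 14 (35.7%, interval 16.3% to 61.2%), and both intervals took in the whole-list shares. They lay on 1000-cell C2C12 peaks in 3 of 24 cases (interval 4.34% to 31.0%), against 8.18%. Of the 5 peaks after NT, 0 overlapped a C2C12 peak from 50000 cells, with a Wilson interval of 0% to 43.4% and a limit of 60.0% by 3 counts, against 50.6% of the whole list or 33.5% at the widths of the Hox peaks. A Toca1 peak was overlapped by 1 of the 5 (interval 3.62% to 62.4%), against 44.3%, or 27.4% at the widths of the Hox peaks. The interval took in both shares. The whole list after NT held 7.32% of peaks on C2C12 peaks but on no donor peak. In the Hox windows this class had 0 of the 5 peaks after NT, too few peaks to compare with that share.

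Sites shared by both C2C12 lists were found in Hoxa and Hoxc. Of the 13 Hox peaks from 1000 cells, 3 overlapped a peak from 50000 cells (23.1%, interval 8.18% to 50.3%). The share was 8.48% in the whole 1000-cell list, or 9.76% at the widths of the Hox peaks, and the interval took in both. The 3 peaks were the Hoxa peak at 52190410 to 52190798 and the Hoxc peaks at 102752086 to 102752329 and 102858318 to 102858598. By the labels, the libraries from 1000 cells were amplified without the purification kit, and its part in the difference between the C2C12 lists was not tested.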

How the data were processed

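ATAC-seq peaks of 8 mouse libraries in 5 conditions were used, as 1 list per condition. The authors deposited chromosome, start and end in bp, with no score, signal or depth. The submitters' processing notes name mm9, Bowtie2 2.2.1, Picard and MACS2 2.1. Their settings, and whether libraries were pooled before calling, are not given in the sources used here. Lists were assigned to conditions by name.

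Peaks overlapping the windows by at least 1 bp were counted, and starts were written 1-based. Newly opened peaks lay at least 5000 bp, edge to edge, from every donor peak. Shares have 95% Wilson intervals, which cover counting error only, and a count of 0 was given the limit of 3 counts. Tiles ran from the lowest to the highest peak position of each chromosome. For width-weighted shares, each list was split by width into classes of 25%. The code was tested on simulated data and against bedtools 2.31.1. Python 3.11.15, numpy 2.4.6 and matplotlib 3.10.9 were used.

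Named genes were Hox or Hox antisense genes that the study's tables of newly opened peaks pair with a peak after NT. Other Hox genes appear as neighbours in the reference order. Gm53 and the sites found in several lists were named outside the rule, after their values were seen. Gene order came from RefSeq (GRCm38.p6), which matched 38 of 38 symbols. Peak sequences were not used here. The members and lists were chosen with earlier results of these data known, and the width weighting, adjoining stretches and leaving out a cluster were chosen after the data were seen.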

Additional observations from a re-analysis of the deposited data

How the results depend on the processing

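No paired analysis was possible because each condition has 1 peak list with no values per library, and for the same reason no library could be left out. Of 156 alternative values, 124 stayed within their interval or, for counts, widths and covered length, within 1.5 times. Some of the 124 could not have moved. A share of 0% cannot rise under a minimum width or a stricter overlap. No peak crossed a window edge, so placing peaks by their centre changed nothing. Joining peaks up to 150 bp apart and placing peaks by their centre moved none. With the 8257 widest peaks of each list, the Hox windows held 1 C2C12 peak from 50000 cells, 6 from 1000 cells, 2 donor peaks and 10 Toca1 peaks, of which 9 were newly opened, and Hoxc then had 1 peak in each C2C12 list and in the Toca1 list, 0 in the donor list and 2 after NT. The median widths were 986 (C2C12 from 50000 cells), 686.5 (donor) and 744.5 bp (Toca1), and the covered shares 0.137%, 0.339%, 0.191% and 1.10% (C2C12 from 50000 and 1000 cells, donor, Toca1). Donor peaks were then on Toca1 peaks in 50.0% of cases (1 of 2). Shares of 0% were found for donor peaks on C2C12 peaks (0 of 2) and C2C12 peaks on donor peaks (0 of 1). The same held for 1000-cell on 50000-cell peaks (0 of 6) and Toca1 peaks on C2C12 peaks (0 of 10). These shares rest on few peaks. Keeping peaks of at least 250 bp left 16 C2C12 peaks from 50000 cells and 2 peaks after NT, both newly opened, with a median of 329.5 bp and 0.0915% covered. Windows widened by 50 kb held 8 peaks after NT, of which 6 were newly opened, and Hoxb then held 5 C2C12 peaks from 50000 cells. A reciprocal overlap of at least 50% gave 4.55% (donor on Toca1), 13.6% (donor on C2C12), 10.3% (C2C12 on donor), 0% (NT on Toca1), 7.69% (1000-cell on 50000-cell), 8.33% (Toca1 on C2C12) and 4.17% (Toca1 on donor). With the 1000-cell C2C12 list, donor and C2C12 peaks were shared in 4.55% and 7.69%. The cause was not tested where the setting did not impose the move. The alternatives for Toca1 and NT peaks on C2C12 peaks, and for Toca1 peaks on donor peaks, were chosen after seeing the data. Without read numbers, depth sets an unknown limit on every count.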
